A study of Mus musculus with 28 samples.

Results

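Coagulation and complement factors are plasma proteins made largely by hepatocytes, and the RNA of 39 genes that encode them was followed here in mouse liver. The members were taken by symbol: each row of the deposited gene table whose Ensembl identifier maps to a listed symbol. All 39 symbols matched exactly 1 row each, out of 49585 features in the table, and all 39 were among the 21583 genes kept as expressed. By role, 5 belong to thrombin generation, 5 to the contact system, 6 to fibrin and fibrinolysis, 4 to the anticoagulants, 9 to complement activation, 6 to terminal complement and 4 to complement control.

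The study compared livers of wild-type (WT) mice with livers of mice that carry a SIRT6 transgene throughout the body (SIRT6-tg), in both sexes. Each sex had 7 WT and 7 SIRT6-tg mice, all of strain C57BL/6JOlaHsd, aged 5 to 7 months and kept on standard chow. The livers of all groups were taken after a short fast. All SIRT6-tg mice came from a single transgenic line that had been backcrossed to this strain, and the promoter that drives the transgene is not given in the sources used here. The strain itself lacks Mmrn1, which encodes multimerin 1, a binding protein for factor V. Mmrn1 had 0 counts in all 28 libraries, so WT and SIRT6-tg mice share this absence.

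Read counts per gene were scaled with TMM factors, which equalise the bulk of genes between libraries. They are given as CPM, in which counts are taken relative to the total of the library multiplied by its TMM factor. The CPM values of a library therefore do not add up to a common total. The factors were 1.06 to 1.17 in male WT, 0.821 to 0.993 in male SIRT6-tg, 0.908 to 1.02 in female WT and 0.906 to 1.06 in female SIRT6-tg mice. Total counts ranged from 18758863 to 35393069 per library. Sirt6 counts, endogenous and transgenic together, were 1.69 to 3.235 CPM in male WT, 198 to 358 CPM in male SIRT6-tg, 1.805 to 6.21 CPM in female WT and 16.35 to 50.2 CPM in female SIRT6-tg mice. Within each sex the SIRT6-tg and WT ranges lay apart, and the 7 female SIRT6-tg mice lay below all male SIRT6-tg mice. All 13 hepatocyte markers, among them Alb and Apoa1, were counted in every group and took 13.1% to 19.9% of the counts of a library.

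Coagulation runs as a cascade of proteases. Tissue factor with factor VII starts it, the contact system offers another entry, and factor X with its cofactor, factor V, turns prothrombin into thrombin, which cuts fibrinogen into fibrin. Antithrombin and the protein C pathway hold the cascade back, and plasmin dissolves the clot. Complement is a parallel cascade: the classical and lectin pathways cleave C4 and C2, the alternative pathway uses factor B, all converge on C3, and C5 to C9 assemble the pore called the membrane attack complex. Most of these proteins come from hepatocytes, and several are acute phase proteins whose production changes during inflammation.

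The sequences just upstream of 5 members are shown because the results turn on them: the 3 fibrinogen genes, which lie side by side and moved together, C6, with the widest difference between the sexes, and Pros1, the member that fell in male SIRT6-tg mice. Each is the 250 bases before the RefSeq start of the gene in GRCm38.p6, read 5′ to 3′ on the strand of the gene. Capitals mark matches to the motifs described after them.
Fga, chr3:83025903-83026152, plus strand: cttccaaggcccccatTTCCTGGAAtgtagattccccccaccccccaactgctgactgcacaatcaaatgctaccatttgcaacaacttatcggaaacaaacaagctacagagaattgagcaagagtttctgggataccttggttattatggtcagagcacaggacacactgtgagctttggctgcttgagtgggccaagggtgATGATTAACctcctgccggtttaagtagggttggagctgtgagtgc
Fgb, chr3:83049864-83050113, minus strand: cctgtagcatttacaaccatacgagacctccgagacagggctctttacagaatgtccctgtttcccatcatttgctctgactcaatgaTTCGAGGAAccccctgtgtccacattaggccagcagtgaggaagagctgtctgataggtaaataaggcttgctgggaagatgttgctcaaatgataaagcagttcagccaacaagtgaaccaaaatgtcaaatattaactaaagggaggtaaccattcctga
Fgg, chr3:83007474-83007723, plus strand: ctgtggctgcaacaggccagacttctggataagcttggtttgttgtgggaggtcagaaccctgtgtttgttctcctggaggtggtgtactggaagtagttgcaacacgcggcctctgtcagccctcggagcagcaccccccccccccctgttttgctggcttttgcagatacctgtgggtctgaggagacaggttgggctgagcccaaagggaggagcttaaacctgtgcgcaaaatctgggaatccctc
C6, chr15:4726960-4727209, plus strand: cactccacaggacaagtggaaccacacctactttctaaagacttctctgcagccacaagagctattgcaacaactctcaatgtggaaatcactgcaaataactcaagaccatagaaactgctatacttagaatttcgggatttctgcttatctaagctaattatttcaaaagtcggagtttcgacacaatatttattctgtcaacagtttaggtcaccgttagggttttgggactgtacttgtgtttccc
Pros1, chr16:62854057-62854306, plus strand: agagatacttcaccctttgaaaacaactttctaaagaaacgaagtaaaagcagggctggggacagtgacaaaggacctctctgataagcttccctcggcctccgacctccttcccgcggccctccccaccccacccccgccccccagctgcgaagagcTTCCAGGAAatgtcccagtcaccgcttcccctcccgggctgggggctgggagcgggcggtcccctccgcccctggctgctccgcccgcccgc

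A window from 250 bases before to 50 bases after the start was at hand for 30 of the 39 members. In these windows 5 short motifs were searched on both strands. GTTAATNAT, a form of the site of the hepatocyte factor HNF1, matched in Fga, F13b, Hc and C4bp, 4 of the 30, and in 0.801% of all 32851 windows. In Fga the match begins 46 bases before the start on the opposite strand and reads ATGATTAAC above. TTCNNNGAA, the form bound by STAT factors, matched in 8 of the 30 members and in 8.3% of all windows. Those 8 were Fga, Fgb, Pros1, F9, C8a, C1ra, Masp2 and Vtn. The matches shown begin 234 bases before the start in Fga, 162 in Fgb and 92 in Pros1. GAAANNGAA, an interferon response form, matched in 1 of the 30, Vtn, and in 8.56% of all windows. TTGCGCAA, a C/EBP form, and CAAAGTCCA, an HNF4 form, matched in 0 of the 30 and in 0.183% and 0.475% of all windows. The windows of Fgg and C6 held none of the 5. No match shows that a factor binds, and its absence says only that these letters are not in the window.

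The members spanned a wide range of abundance. On the scale of mean CPM per kb of exon, Fgg (1426), C3 (1344) and Fga (1289.8) were highest in male WT mice, whereas C3 (2613), Fgg (2248) and Fga (2132) led in female WT mice. Vtn, which encodes vitronectin, a plasma and matrix protein that restrains the membrane attack complex, followed in males with 1080.2. At the other end, Masp1 stood at 5.19 in male WT and 5.59 in female WT mice, Cfb at 7.66 and 7.597, and C2 at 15.3 and 13.05. C6 ranked 28th of the members in male WT and 37th in female WT mice. Together the 39 genes took 4.37% ± 0.366 of all counts in male WT (mean ± SD, n = 7), 4.21% ± 0.418 in male SIRT6-tg, 5.41% ± 0.486 in female WT and 4.84% ± 0.649 in female SIRT6-tg mice. The levels of Cfb, C2 and Klkb1 are uncertain, because 79.5%, 42.8% and 43.2% of their exon bases also lie in an overlapping transcript model on the same strand, and counting can leave out reads that hit both. Kng1 and Kng2, C4b and C4a, and C1ra and C1rb are close copies that can exchange reads.

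**Figure D1:**
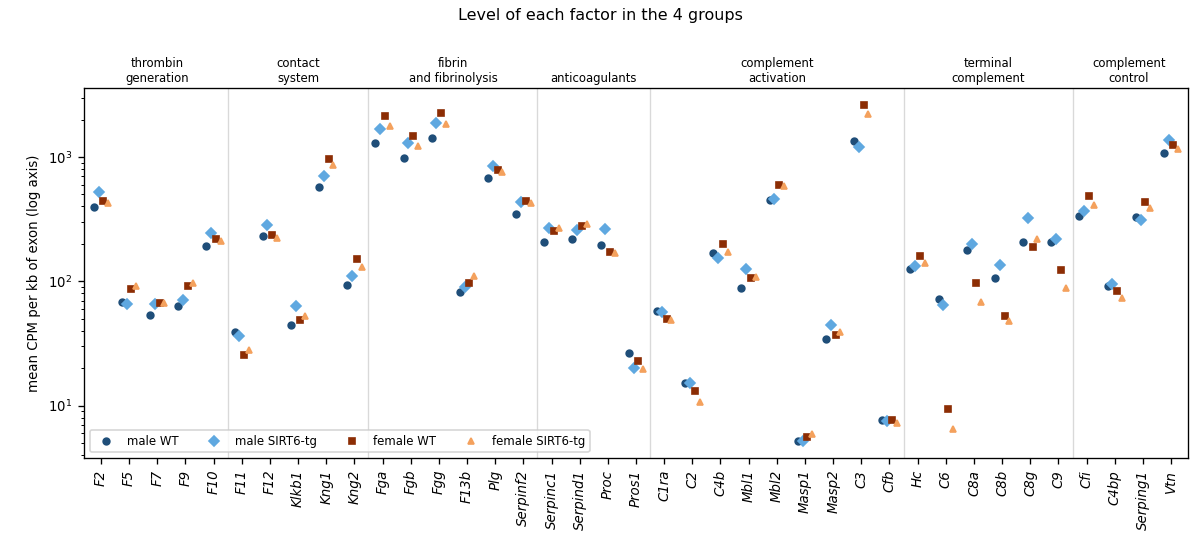
Mean CPM per kb of exon (log axis) of the 39 factors, ordered by role, in the 4 groups of 7 mice. Symbols mark the groups, and the 4 symbols of a gene lie close together except for C6, which stood at 72.2 in male WT and 9.33 in female WT mice, and to a lesser extent C8a, C8b, C9 and C3.

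The spread between mice of a group also differed between members. On the log2 CPM scale, the SD within the WT groups was lowest for C1ra at 0.094, Serpinc1 at 0.11 and Masp2 at 0.12. It was highest for Masp1 at 0.69, C6 at 0.47 and Cfb at 0.42. A fixed difference between groups was therefore easier to detect in Serpinc1 than in Masp1.

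In males, SIRT6-tg mice had modestly more RNA of many coagulation factors than WT mice when libraries were scaled with TMM, and 18 of the 39 members passed an adjusted p of 0.05 in that direction, against 9.68% of all 21583 genes. The 18 were spread over thrombin generation (F2, F7, F10), the contact system (F12, Klkb1, Kng1), fibrin and fibrinolysis (Fga, Fgb, Fgg, Plg, Serpinf2), the anticoagulants (Serpinc1, Serpind1, Proc), complement activation (Mbl1, Masp2), terminal complement (C8g) and complement control (Vtn). The single member that fell was Pros1, against 11.0% of all genes. Their log2 changes were small, 0.23 to 0.64 among the 18, and the median of all 39 was 0.23, beside 0.056 over all genes. Of the 20 members in the 4 coagulation roles 14 rose, and of the 19 in the 3 complement roles 4 did, a difference that was not tested. Without male WT replicate 4 the count of 18 became 8, against 5.09% of all genes. In bulk tissue, more hepatocytes and more RNA per hepatocyte cannot be told apart.

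**Figure D2:**
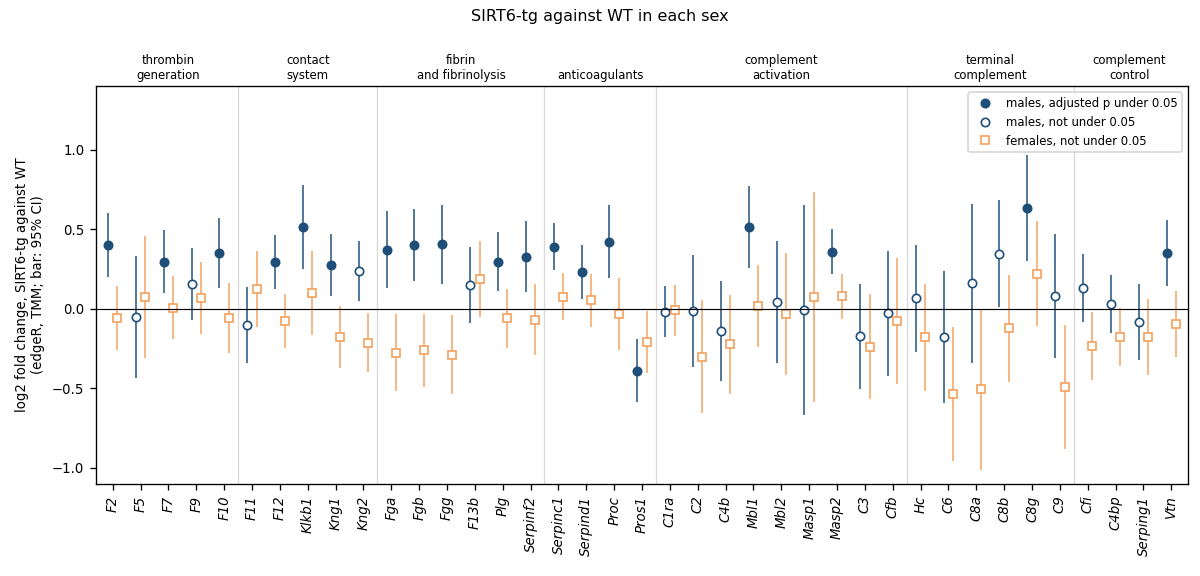
Log2 fold change of SIRT6-tg against WT mice for the 39 factors, ordered by role, in males (circles) and females (squares), from edgeR with TMM scaling, and bars are 95% confidence intervals. Filled symbols have an adjusted p under 0.05: 18 members above 0 and Pros1 below 0 in males, and none in females (with library size alone, 0 above and 4 below 0 in males).

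These directions depended on how the libraries were scaled. With library size alone, edgeR called 0 of the 39 higher in male SIRT6-tg mice (2 at an unadjusted p under 0.05) and 4 lower (F11, Pros1, C1ra and Serping1), against 0.973% and 18.9% of all genes, and the median of all genes moved from 0.056 to -0.22. With the 13 hepatocyte markers as reference, edgeR called 0 higher (1 at an unadjusted p under 0.05) and 5 lower (C2, F11, Mbl2, Pros1 and Serping1), against 0.510% and 19.5% of all genes, and the median of all genes was -0.31. A scaling shifts all genes of a library alike, so the position of the members relative to all genes could hardly move between scalings. Their median lay 0.18 above that of all genes with TMM, 0.17 with library size alone and 0.16 with the hepatocyte reference. Under each of these 3 scalings, 26 of the 39 lay above the median of all genes. With filterByExpr the distance was 0.14, with 24 of the 39 above that median. Without the 7 libraries with a strong length trend, described further on, it was 0.13, also with 24 above. Pros1 was called lower in male SIRT6-tg mice under every setting tried, with -0.67 by library size alone and -0.76 by the hepatocyte reference. What follows is from edgeR on the TMM scale with all 28 libraries, unless another setting is named, and that a gene was not called says this of that fit alone.

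**Figure D3:**
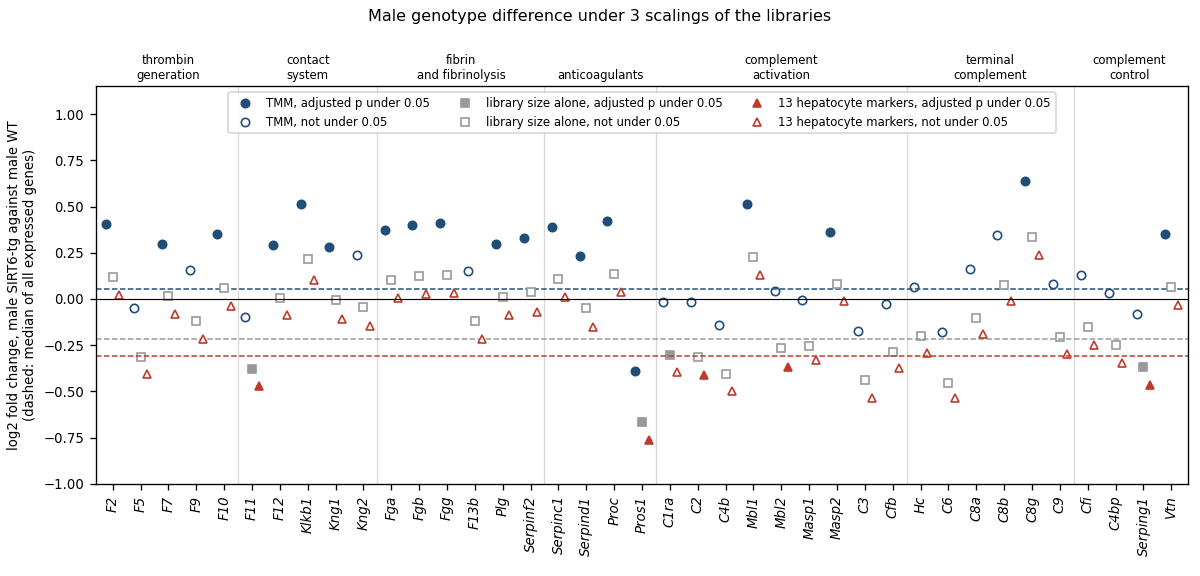
Log2 fold change of male SIRT6-tg against male WT mice for the 39 factors under 3 scalings of the same counts: TMM (circles), library size alone (squares) and 13 hepatocyte markers (triangles). Filled symbols have an adjusted p under 0.05, and dashed lines are the median of all expressed genes (0.056, -0.22 and -0.31). A scaling shifts all genes of a library alike, so the distance of the members from their line could hardly change.

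Markers of other cells moved with the male comparison. All 6 T cell markers fell in male SIRT6-tg against male WT mice, with Cd8a at -3.67 on the log2 scale (adjusted p = 5.84e-09), and their summed level was 4.19 to 6.11 CPM in male SIRT6-tg and 11.9 to 34.85 CPM in male WT mice. All 8 macrophage and Kupffer markers fell as well, with Marco at -3.29 (adjusted p = 2.46e-06) and summed levels of 305 to 512 CPM in SIRT6-tg and 354 to 1183 CPM in WT males. Of the other lists, 3 of 4 B cell markers, 6 of 6 stellate cell markers, 1 of 6 endothelial, 0 of 4 cholangiocyte and 0 of 5 platelet markers (1 of each at an unadjusted p under 0.05, and 0 called by DESeq2) fell in edgeR's test, 1 of 5 red cell markers rose, and 4 of 13 hepatocyte markers rose. No marker of any of these lists was at 0 in a whole group. The 10 listed genes of the interferon-gamma response all fell, led by Gbp2 at -3.08 (adjusted p = 2.78e-08). The part of these differences in the members' values was not tested.

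Among the genes of thrombin generation, prothrombin and factor X rose most clearly in males on the TMM scale. Neither was called with library size alone or the hepatocyte reference. F2, which encodes prothrombin, lay at 1629 to 1934 CPM (median 1822) in male WT, 2115 to 2753 CPM (median 2377) in male SIRT6-tg, 1623 to 2427 CPM (median 1856) in female WT and 1685 to 2369 CPM (median 1886) in female SIRT6-tg mice. All 7 male SIRT6-tg mice were above all 7 male WT mice, while the female groups overlapped widely. The male difference was 0.40 ± 0.098 (SE, n = 7 and 7, adjusted p = 0.00309) and that in females -0.056 ± 0.098 (adjusted p = 1). F10, the protease that cleaves prothrombin, showed the same separation in males with 0.35 ± 0.11 (SE, adjusted p = 0.0186). F7, which pairs with tissue factor, changed by 0.30 ± 0.098 (SE, adjusted p = 0.028), and with the hepatocyte reference F7 and F10 turned to -0.082 and -0.036. F5, the cofactor of factor X, and F9, the factor absent in haemophilia B, did not pass in males, with -0.051 ± 0.19 and 0.16 ± 0.11. F7 and F10 are neighbours on chromosome 8, 1498 bases apart on the same strand.

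F9 differed between the sexes instead. It lay at 125 to 221 CPM (median 183) in male WT, 169 to 221 CPM (median 185) in male SIRT6-tg, 206 to 280.5 CPM (median 257) in female WT and 211 to 302 CPM (median 274) in female SIRT6-tg mice. Male WT mice were mostly below female WT mice, with overlapping ranges, and the difference was -0.53 ± 0.11 (SE, n = 7 and 7, adjusted p = 0.00139). F7 was also lower in WT males, by -0.32 ± 0.098 on the log2 scale (adjusted p = 0.0262), whereas F2, F5 and F10 did not pass, with 95% confidence intervals of -0.35 to 0.044, -0.74 to 0.026 and -0.41 to 0.03.

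In the contact system, plasma prekallikrein rose in male SIRT6-tg mice and the kininogens set the sexes apart. Klkb1, which encodes prekallikrein, lay at 191 to 287 CPM (median 224) in male WT, 276 to 485 CPM (median 314) in male SIRT6-tg, 209 to 343 CPM (median 249) in female WT and 233 to 338 CPM (median 261) in female SIRT6-tg mice. The male groups met only at their edges, and the difference was 0.51 ± 0.13 (SE, n = 7 and 7, adjusted p = 0.00439). F12, the zymogen that prekallikrein activates, rose by 0.29 ± 0.084 (SE, adjusted p = 0.0112), a value that turned to -0.086 with the hepatocyte reference. F11, on chromosome 8 beside Klkb1 with a gap of 4657 bases, went the other way between the sexes. It lay at 60.9 to 119.8 CPM (median 86.6) in male WT, 72.9 to 98.5 CPM (median 79.3) in male SIRT6-tg, 43.9 to 66.8 CPM (median 56.98) in female WT and 54.5 to 79.4 CPM (median 59.4) in female SIRT6-tg mice. WT males were above WT females in most mice, by 0.60 ± 0.12 (SE, n = 7 and 7, adjusted p = 6.49e-04), and the male genotype difference was -0.098 ± 0.12 (SE, adjusted p = 0.615).

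Kng1, the kininogen that releases bradykinin and carries prekallikrein, lay at 1682 to 2307 CPM (median 1841) in male WT, 2070.3 to 2450.0 CPM (median 2364) in male SIRT6-tg, 2743 to 3906 CPM (median 3127) in female WT and 2381 to 3522 CPM (median 2764) in female SIRT6-tg mice. Every male WT mouse was below every female WT mouse, by -0.74 ± 0.096 (SE, n = 7 and 7, adjusted p = 2.28e-06). Its close copy Kng2 lay at 235 to 304 CPM (median 252) in male WT, 262 to 330.5 CPM (median 307) in male SIRT6-tg, 346 to 498 CPM (median 397) in female WT and 306 to 448 CPM (median 335) in female SIRT6-tg mice. Kng2 showed the same separation, by -0.69 ± 0.092 (SE, n = 7 and 7, adjusted p = 3.74e-06), and reads exchanged between the copies could make them look alike. In males SIRT6-tg exceeded WT by 0.28 ± 0.096 (SE, adjusted p = 0.0364) for Kng1, which became -0.0055 with library size alone and -0.11 with the hepatocyte reference, and by 0.24 ± 0.092 (SE, adjusted p = 0.0636) for Kng2. The ratio of Kng1 to Kng2 per kb stayed narrow, at 5.84 to 6.38 (median 6.21) in male WT and 6.06 to 6.86 (median 6.42) in female WT mice.

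The 3 fibrinogen chains had estimates of the same sign in each comparison. Fga, Fgb and Fgg lie close together on chromosome 3, with 6513 bases between Fga and Fgb and 11026 between Fga and Fgg. Fgb, the beta chain, lay at 3152 to 4215 CPM (median 3878) in male WT, 3991 to 5907 CPM (median 4747) in male SIRT6-tg, 4660.0 to 7198 CPM (median 5453) in female WT and 3807 to 6141 CPM (median 4523) in female SIRT6-tg mice. Male WT mice were the lowest of the 4 groups and female WT mice the highest, with male and female WT ranges apart. Fga, the alpha chain, lay at 3090.0 to 4559 CPM (median 3669) in male WT, 4169 to 6393 CPM (median 4549) in male SIRT6-tg, 5765 to 7537 CPM (median 6369) in female WT and 4220.4 to 7122 CPM (median 5242) in female SIRT6-tg mice. Fgg, the gamma chain, lay at 2479 to 3401 CPM (median 2963) in male WT, 3134 to 5061 CPM (median 4037) in male SIRT6-tg, 3776 to 6480.0 CPM (median 4535) in female WT and 3206 to 5269.9 CPM (median 3644) in female SIRT6-tg mice. All 3 chains put the WT sexes apart and let the male genotypes overlap.

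Against male WT mice, male SIRT6-tg mice exceeded them by 0.40 ± 0.11 (SE, adjusted p = 0.00975) for Fgb, 0.37 ± 0.12 (SE, adjusted p = 0.0237) for Fga and 0.41 ± 0.12 (SE, adjusted p = 0.0155) for Fgg. No chain was called in this comparison with library size alone or the hepatocyte reference. The lowest estimates among the other settings were 0.027 for Fgb, 0.0074 for Fga and 0.033 for Fgg. Male WT mice were lower than female WT mice by -0.58 ± 0.11 (SE, adjusted p = 5.51e-04), -0.72 ± 0.12 (SE, adjusted p = 8.60e-05) and -0.66 ± 0.12 (SE, adjusted p = 3.71e-04) in the same order. In females the point estimates were on the other side of 0, with -0.26 ± 0.11, -0.28 ± 0.12 and -0.29 ± 0.12, none of which passed. Within a mouse, Fgg to Fgb per kb was 1.39 to 1.69 (median 1.42) in male WT, 1.41 to 1.56 (median 1.43) in male SIRT6-tg, 1.45 to 1.67 (median 1.48) in female WT and 1.33 to 1.67 (median 1.49) in female SIRT6-tg mice. Fga to Fgb per kb was less even, at 1.197 to 1.46 (median 1.32) in male WT, 1.11 to 1.37 (median 1.33) in male SIRT6-tg, 1.32 to 1.57 (median 1.5) in female WT and 1.34 to 1.52 (median 1.44) in female SIRT6-tg mice, a difference between the sexes that was not tested.

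The remaining genes of this role moved less. Plg, the precursor of plasmin, rose by 0.30 ± 0.09 (SE, adjusted p = 0.0169) in male SIRT6-tg mice. Serpinf2, the antiplasmin that blocks it, rose by 0.33 ± 0.11 (SE, adjusted p = 0.0294), and both turned to slightly negative values, -0.089 and -0.068, with the hepatocyte reference. Serpinf2 was also lower in WT males than WT females by -0.35 ± 0.11 (SE, adjusted p = 0.032), with ranges that just failed to meet. F13b, the carrier subunit of the enzyme that cross-links fibrin, was not called in any comparison of this fit, but was called higher in male SIRT6-tg mice with the length slope as a covariate (0.26, adjusted p = 0.00641), and its 95% confidence intervals were -0.087 to 0.39 for the male genotype and -0.49 to -0.013 for the WT sexes.

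The anticoagulants split. Serpinc1, which encodes antithrombin, the main inhibitor of thrombin, had the lowest adjusted p of all members for the male genotype. It lay at 1524 to 1925 CPM (median 1760.1) in male WT, 2195 to 2441 CPM (median 2295) in male SIRT6-tg, 1964 to 2508 CPM (median 2207) in female WT and 2121 to 2524 CPM (median 2263) in female SIRT6-tg mice. Male WT mice formed a low group of their own, with no overlap with male SIRT6-tg or female WT mice. The male genotype difference was 0.39 ± 0.072 (SE, n = 7 and 7, adjusted p = 1.54e-04) and the WT sex difference -0.32 ± 0.072 (SE, n = 7 and 7, adjusted p = 0.00275). With library size alone or the hepatocyte reference Serpinc1 was not called for the male genotype, and its lowest value among the other settings was 0.012. Of its exon bases, 34.4% are shared with Zbtb37 on the opposite strand, and without the strand setting of the counting these reads cannot be told apart. Serpind1, heparin cofactor II, another thrombin inhibitor, rose by 0.23 ± 0.082 (SE, adjusted p = 0.0426), but the value was -0.0497 with library size alone and -0.15 with the hepatocyte reference, and it was lower in WT males than females by -0.34 ± 0.082 (SE, adjusted p = 0.0057).

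Protein C and its cofactor protein S went in opposite directions in males. Proc, which encodes protein C, lay at 432 to 555 CPM (median 499) in male WT, 571 to 805 CPM (median 627) in male SIRT6-tg, 351 to 565 CPM (median 368) in female WT and 375 to 513 CPM (median 399) in female SIRT6-tg mice. The male SIRT6-tg mice were all above the male WT mice, with a difference of 0.42 ± 0.11 (SE, n = 7 and 7, adjusted p = 0.00638). With library size alone or the hepatocyte reference Proc was not called in males, and its lowest value among the other settings was 0.036. Pros1, which encodes protein S and whose upstream sequence is shown above, lay at 83.7 to 120.1 CPM (median 110.4) in male WT, 74.3 to 90.1 CPM (median 83.9) in male SIRT6-tg, 79.4 to 115 CPM (median 92.2) in female WT and 65.95 to 99.8 CPM (median 75.5) in female SIRT6-tg mice. Most male SIRT6-tg mice were below male WT mice, and the single male WT mouse within their range, replicate 6, had 83.7 CPM while the other 6 had 104 to 120.1. The difference was -0.39 ± 0.096 (SE, n = 7 and 7, adjusted p = 0.00366). In females Pros1 differed by -0.21 ± 0.096 (adjusted p = 0.827), and the sexes' genotype effects on Pros1 differed by -0.18 ± 0.14 (adjusted p = 0.518). The ratio of Proc to Pros1 per kb, which no scaling of libraries can change, was 6.04 to 10.4 (median 7.01) in male WT and 10.7 to 17.3 (median 13.02) in male SIRT6-tg, with no overlap, and 6.21 to 9.75 (median 7.34) in female WT and 6.77 to 11.9 (median 8.22) in female SIRT6-tg mice.

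**Figure D4:**
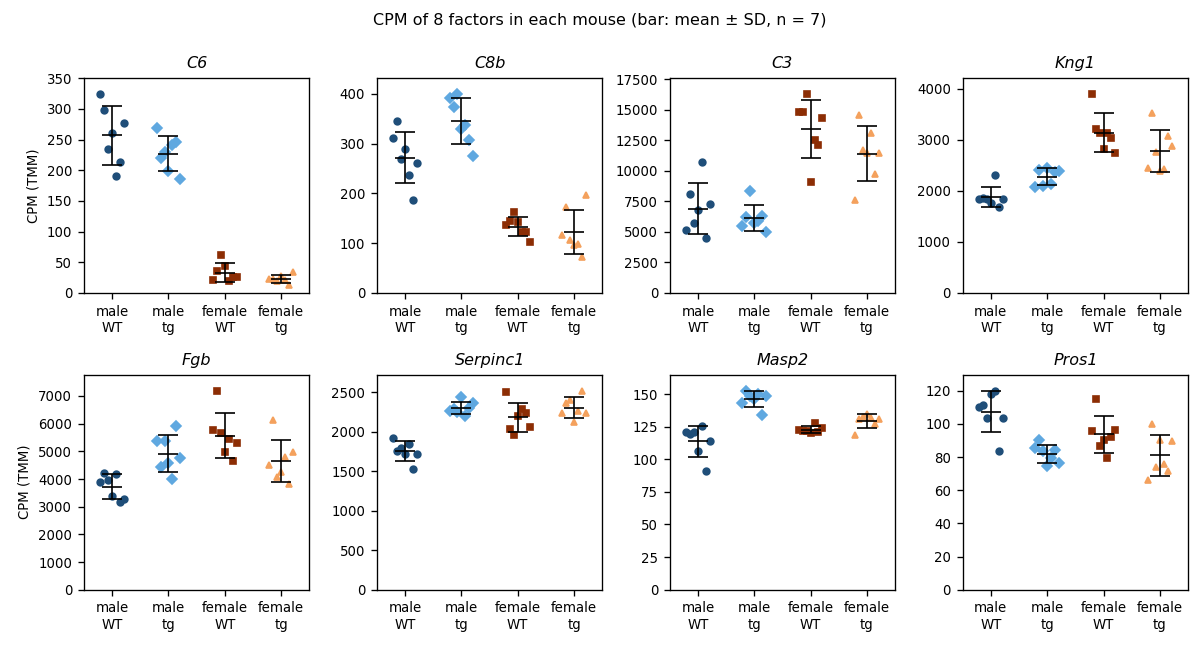
CPM (TMM scaling) of 8 factors in each of the 28 mice, by group, with the mean and SD of 7 mice as a bar, and vertical axes starting at 0. C6 separates the sexes, and C3, Kng1 and Fgb are lower in male than in female WT mice. C8b separates the sexes within each genotype, while the lowest male WT mouse (187 CPM) lies below the highest female SIRT6-tg mouse (196 CPM). Serpinc1 and Masp2 are higher in male SIRT6-tg than in male WT mice (not called with library size alone), and Pros1 is lower.

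In complement activation, 2 genes of the lectin pathway rose in male SIRT6-tg mice. Masp2, the protease that cleaves C4 and C2, lay at 90.8 to 125 CPM (median 119) in male WT, 134 to 153 CPM (median 148) in male SIRT6-tg, 120.1 to 128 CPM (median 122) in female WT and 119 to 135 CPM (median 131) in female SIRT6-tg mice. Male SIRT6-tg mice were above all male WT mice and above most females, with a male difference of 0.36 ± 0.068 (SE, n = 7 and 7, adjusted p = 2.33e-04) and 0.079 ± 0.068 in females. Of the exon bases of Masp2, 54.9% are shared with Tardbp on the opposite strand, and with the hepatocyte reference the value was -0.013. Mbl1, a mannose-binding lectin that carries these proteases, lay at 116 to 156 CPM (median 142) in male WT, 167 to 253 CPM (median 198) in male SIRT6-tg, 123 to 227 CPM (median 169.7) in female WT and 129.9 to 228 CPM (median 172) in female SIRT6-tg mice. The male groups did not overlap, and the difference was 0.52 ± 0.13 (SE, n = 7 and 7, adjusted p = 0.00355). Mbl2, the other lectin, changed by 0.045 ± 0.19 and did not pass. Per kb, Mbl2 to Mbl1 was 3.58 to 6.35 (median 5.34) in male WT and 2.74 to 4.67 (median 3.504) in male SIRT6-tg mice.

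C3, the protein on which the pathways converge, was the most abundant member of this role and the only one of it called between the WT sexes in edgeR with TMM scaling. It lay at 4489 to 10758 CPM (median 6827) in male WT, 4986 to 8337 CPM (median 5879) in male SIRT6-tg, 9109.7 to 16328 CPM (median 14367) in female WT and 7605 to 14598 CPM (median 11476) in female SIRT6-tg mice. Nearly all WT males were below the WT females, and the difference was -0.96 ± 0.16 (SE, n = 7 and 7, adjusted p = 1.26e-04). The genotype differences were -0.17 ± 0.16 in males and -0.24 ± 0.16 in females, and neither passed. C1ra, C2, C4b, Masp1 and Cfb, which supply the proteases and the thioester protein of the classical, lectin and alternative pathways, were called in none of the 4 comparisons in that fit. C1ra lay at 0.21 ± 0.079 (SE, adjusted p = 0.0724) between WT males and females, and 7 of 11 other settings called it higher in WT males, DESeq2 (0.23, adjusted p = 0.00928) and RLE scaling among them. C2 was called higher in WT males with the hepatocyte reference and without the 7 libraries described further on, and Masp1 higher in male SIRT6-tg mice with the length slope as a covariate (0.34, adjusted p = 0.00628). In the fit without that covariate, for Masp1, whose mice ranged from 14.2 to 75.1 CPM within male WT alone, the interval of the male genotype difference was -0.67 to 0.65, wide enough to hold a change of the size called for C8g in the same comparison.

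Terminal complement held the widest difference between the sexes. C6, which joins C5b at the start of the membrane attack complex, lay at 189.9 to 325 CPM (median 261) in male WT, 186 to 269 CPM (median 229.8) in male SIRT6-tg, 19.9 to 62.2 CPM (median 25.5) in female WT and 12.9 to 33.9 CPM (median 22.8) in female SIRT6-tg mice. All males were far above all females, and WT males exceeded WT females 7.73-fold, or by 2.95 ± 0.22 (SE, n = 7 and 7, adjusted p = 5.06e-11). C8b, a chain of C8, lay at 187 to 345 CPM (median 269) in male WT, 275 to 401 CPM (median 338) in male SIRT6-tg, 101 to 163 CPM (median 137) in female WT and 72.1 to 196 CPM (median 106) in female SIRT6-tg mice. Its WT sexes were apart as well, by 1.03 ± 0.17 (SE, n = 7 and 7, adjusted p = 6.45e-05). C8a, its partner, which lies 11130 bases away on chromosome 4 on the other strand, lay at 408 to 822 CPM (median 649.7) in male WT, 546 to 944 CPM (median 716) in male SIRT6-tg, 233 to 565 CPM (median 289) in female WT and 118 to 501 CPM (median 199) in female SIRT6-tg mice. Here the sexes overlapped, and WT males were higher by 0.89 ± 0.25 (SE, n = 7 and 7, adjusted p = 0.016). C9, the pore-forming unit, lay at 466 to 596 CPM (median 528) in male WT, 485 to 655 CPM (median 553) in male SIRT6-tg, 172 to 490.3 CPM (median 285) in female WT and 157 to 417 CPM (median 182) in female SIRT6-tg mice. Male WT mice were tightly grouped and female WT mice spread below and into their range, with a difference of 0.75 ± 0.19 (SE, n = 7 and 7, adjusted p = 0.00817).

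C8g and Hc stood apart from these. C8g, the small lipocalin chain of C8, lay at 251 to 391 CPM (median 302) in male WT, 369 to 666 CPM (median 462) in male SIRT6-tg, 189 to 392 CPM (median 229) in female WT and 260.3 to 446 CPM (median 320.4) in female SIRT6-tg mice. Its male genotype groups overlapped slightly, and the difference was 0.64 ± 0.16 (SE, n = 7 and 7, adjusted p = 0.005), the largest among the members for that comparison on the TMM scale. Between the WT sexes it differed by 0.14 ± 0.16 (adjusted p = 0.649), and C8g to C8b per kb was 1.52 to 3.57 (median 1.87) in male WT and 1.99 to 4.69 (median 3.73) in female WT mice. The C8g call depended on the setting: it was called higher in WT males without the 7 libraries with a strong length trend (0.51, adjusted p = 0.0013), in all of which it lay above its group mean, and with the hepatocyte reference (0.37, adjusted p = 0.0167). Without those 7, C8g to C8b was 1.52 to 2.07 (median 1.83) in 6 male WT and 1.99 to 3.73 (median 3.16) in 4 female WT mice, ranges that overlap at the edge. Hc, which encodes C5, was not called in any comparison, with -0.35 ± 0.17 between the WT sexes, but with the length slope as a covariate its genotype effect was called more positive in males (0.49, adjusted p = 0.0411).

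Among the complement regulators, Cfi and Serping1 differed between the sexes and Vtn between the male genotypes. Cfi, the protease that inactivates C3b, lay at 657 to 953 CPM (median 726) in male WT, 739 to 872 CPM (median 824) in male SIRT6-tg, 940.4 to 1578 CPM (median 970.0) in female WT and 805 to 1101 CPM (median 907) in female SIRT6-tg mice. WT males were below WT females except at the edge of the ranges, by -0.52 ± 0.10 (SE, n = 7 and 7, adjusted p = 9.75e-04). Serping1, the inhibitor of C1 and of the contact proteases, was lower in WT males by -0.40 ± 0.12 (SE, adjusted p = 0.0204). Vtn rose in male SIRT6-tg mice by 0.35 ± 0.10 (SE, adjusted p = 0.0135) with no overlap, and turned to -0.031 with the hepatocyte reference. C4bp, which encodes the C4b-binding protein, was not called in any comparison on the TMM scale with all libraries. It was called higher in WT males with library size alone (0.34, adjusted p = 0.00933) and without the 7 libraries with a strong length trend (0.31, adjusted p = 0.0139).

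In females, no member passed for SIRT6-tg against WT, with 0 of 39 higher and 0 lower, against 0.0232% and 0.00463% of all genes in edgeR's quasi-likelihood test. DESeq2 also called 0 members, and 8 members had an unadjusted p under 0.05 in edgeR and 10 in DESeq2, all lower in SIRT6-tg mice. The lowest p-values belonged to C6 (-0.53 ± 0.21, adjusted p = 0.668), C9 (-0.49 ± 0.19, adjusted p = 0.684), Fgg (-0.29 ± 0.12, adjusted p = 0.771) and Fgb (-0.26 ± 0.11, adjusted p = 0.784). Their 95% confidence intervals were -0.96 to -0.11, -0.88 to -0.1, -0.54 to -0.039 and -0.49 to -0.032, so that modest decreases were within reach of these data without being established. For the members called in males the female intervals were -0.069 to 0.22 for Serpinc1 and -0.061 to 0.22 for Masp2. All female SIRT6-tg mice had less Sirt6 RNA than all male SIRT6-tg mice, so these values do not compare the sexes at an equal level of Sirt6. The median log2 change of the 39 was -0.074, beside 0.0026 over all genes, and 12 of the 39 lay above the median of all genes. The sign of that median turned without the 7 libraries with a strong length trend, where the median of the 39 was 0.012, beside -0.0016 over all genes, with 21 of the 39 above it, and C9 stood at -0.031, C6 at -0.42, Fgg at -0.13 and Fgb at -0.12 (adjusted p = 1 for each of the 4).

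Whether the genotype effect differed between the sexes was tested directly, as the male minus the female effect. Sirt6 RNA was 198 to 358 CPM in male SIRT6-tg and 16.35 to 50.2 CPM in female SIRT6-tg mice. Sex and the level of the transgene can therefore not be told apart in this comparison. On the TMM scale 6 of the 39 passed, all with a more positive effect in males, against 1.20% of all genes, and 0 passed in the other direction, with 0 at an unadjusted p under 0.05 in edgeR and 0 calls in DESeq2, against 3.84%. They were Fgg with 0.70 ± 0.17 (SE, adjusted p = 0.0134), Fgb with 0.66 ± 0.16 (SE, adjusted p = 0.0106) and Fga with 0.65 ± 0.17 (SE, adjusted p = 0.0191), and then Kng2 with 0.45 ± 0.13 (SE, adjusted p = 0.0374), Kng1 with 0.45 ± 0.14 (SE, adjusted p = 0.0455) and F2 with 0.46 ± 0.14 (SE, adjusted p = 0.0472). The 3 fibrinogen genes carried the firmest calls, and they alone remained with RLE or upper-quartile scaling, without a filter on low counts, and when any of 15 single libraries was left out. None of the 6 passed with library size alone or the hepatocyte reference in edgeR, where 2 and 0 members had an unadjusted p under 0.05 in this direction. DESeq2 and filterByExpr each called 9, adding F12, Masp2 and Serpinc1, against 1.63% and 2.35% of all genes. None passed in the 21 libraries left after the 7 with a strong trend on transcript length, described further on, were set aside, where Pros1 was called with a more negative effect in males. Of the 6, 5 were also among the 13 members lower in male than female WT mice, but both comparisons use the same WT livers.

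Between WT males and WT females, 5 of the 39 were higher in males (C6, C8b, F11, C9 and C8a), against 6.66% of all genes, and 13 were lower, against 5.71%. The 13 were C3, Kng1, Kng2, Fga, Fgb, Fgg, F9, Cfi, Serping1, Serpinf2, Serpind1, F7 and Serpinc1. All 5 calls of the first kind, and those of Kng1, Kng2, Fga, Fgg and C3 of the second, were made under every setting tried, each scaling and each left-out library included. With library size alone 9 were called higher, against 16.9% of all genes, and 8 lower, against 2.57%. All 6 T cell markers and 8 of 10 interferon-gamma response genes were higher in WT males than WT females, and 2 of 13 hepatocyte markers, Ahsg and Alb, were lower, whose part in the members' values was not tested.

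**Figure D5:**
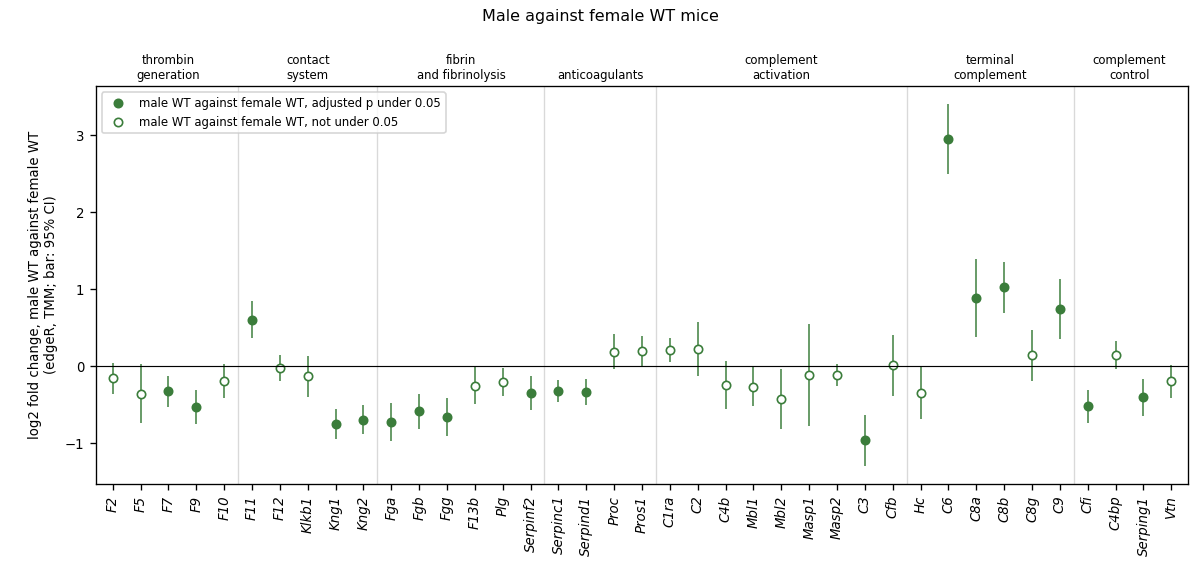
Log2 fold change of male WT against female WT mice for the 39 factors, ordered by role, from edgeR with TMM scaling (n = 7 and 7), with 95% confidence intervals as bars and filled symbols for an adjusted p under 0.05. C6 stands at 2.95, C8b at 1.03, C8a at 0.89 and C9 at 0.75, while C3 at -0.96 and the kininogens and fibrinogens are below 0.

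Other genes of the same pathways, taken from lists, gave the surroundings of these values. Of 10 further liver-made coagulation genes, 1 rose in male SIRT6-tg mice on the TMM scale, Hgfac at 0.28 (adjusted p = 0.0312; 0 with library size alone), and 5 were lower in WT males than WT females, among them Fgl1 at -1.64 (adjusted p = 2.47e-05), Itih4 at -1.03 (adjusted p = 3.71e-06), Hrg at -0.66 (adjusted p = 2.17e-04) and Cpb2 at -0.34 (adjusted p = 0.0233). Of 6 genes of the vitamin K cycle and factor export, 2 rose in male SIRT6-tg mice, Vkorc1 at 0.63 (adjusted p = 0.014) and Lman1 at 0.33 (adjusted p = 0.0321), and with library size alone 0 rose and 1 fell. Of 13 further liver-made complement genes, 4 rose in male SIRT6-tg mice, among them C1rl at 0.57, Cfhr2 at 0.46 and C4a at 0.78, and with library size alone 1 rose and 2 fell. Between the WT sexes C4a was higher in males at 1.75 (adjusted p = 3.44e-05) and Cfhr2 was lower, at -0.58.

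Pathway genes that are made mainly by other cells went the opposite way in males. Of 17 coagulation genes made outside hepatocytes or held on cells, 9 fell in male SIRT6-tg mice and 1 rose, with a median log2 change of -0.73, and the fall was led by Procr, the receptor of protein C, at -2.03 (adjusted p = 4.54e-06), Plaur at -1.77 and Plat, tissue plasminogen activator, at -2.21. Of 13 expressed genes for complement components of myeloid cells and complement receptors, 9 fell and 0 rose, led by Itgax at -3.09 (adjusted p = 5.16e-09), Itgb2 at -1.86 and the anaphylatoxin receptors C3ar1 at -1.47 and C5ar1 at -1.83. C3ar1 lay at 3.77 to 9.91 CPM in male WT and 1.94 to 3.425 CPM in male SIRT6-tg mice. Between the WT sexes 7 of the 17 and 4 of the 13 were higher in males. In females 0 genes of both lists passed in edgeR or DESeq2, and 4 of the 17 and 1 of the 13 had an unadjusted p under 0.05.

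A trend on transcript length, taken as all annotated exon bases of a gene, separated libraries within groups. In 7 of the 28, namely male WT replicate 6, male SIRT6-tg replicate 7, female WT replicates 1, 2 and 4 and female SIRT6-tg replicates 1 and 6, longer genes were lower than in the rest of their group. Masp1 lay at 14.2 to 37.2 CPM in these 7 and 35.4 to 86.9 CPM in the other 21, and F5 at 293 to 529.9 and 414 to 869 CPM. Mbl2, a short transcript, went the other way, at 640.0 to 968 CPM in the 7 and 353 to 635 CPM in the 21. F5, F13b and Masp1 were below their group mean in all 7, and F2, F10, Plg, Proc, C2, Mbl1, Mbl2 and C8g were above it in all 7. The members did not sort by length alone: F13b has 2532 exon bases, whereas F2 has 4594 and C2 has 3872. Without these libraries 10 of the 39 were called higher in male SIRT6-tg mice, against 8.06% of all genes, and Pros1 stayed lower, against 13.6%. Between the WT sexes 11 were then called higher and 10 lower in males, against 14.3% and 9.36% of all genes. With the slope as a covariate and all libraries, F5, F9, F13b, Kng2 and Masp1 joined those higher in male SIRT6-tg mice, and between the WT sexes C1ra joined those higher in males and F2, F5, F10, Mbl1, Mbl2, Plg and Vtn those lower.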

How the data were processed

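Liver RNA of 28 mice was analysed, with sex, genotype and replicate number taken from the labels. The authors aligned single-end reads to mm10 with STAR 2.5.0a, counted uniquely mapped reads on Gencode vM12 genes with HTSeq-count, and deposited raw counts without normalization. The strand setting is not given in the sources used here. All columns were matched to samples (0 unmapped). Symbols, coordinates and exon lengths came from Gencode vM21 of GRCm38, the same build.

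Genes with a mean normalized count of 0.5 or more were kept (21583) and scaled by TMM. edgeR 4.0.16 (R 4.3.3, limma 3.58.1) gave quasi-likelihood F-tests with robust estimation, 4 groups in 1 fit without covariates, with Benjamini-Hochberg adjustment over all genes and a threshold of 0.05. The comparisons were SIRT6-tg against WT within males and within females, the male minus the female effect, and male against female WT mice. P-values judge a difference between groups against the spread between mice, estimated over the 4 groups together. CPM values use TMM library sizes. The fit was tested on simulated data.

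Members and lists were chosen with earlier results of these data known. Named in full are members past the threshold, at most the 8 with the lowest adjusted p per direction, or the 4 with the lowest p where fewer than 4 passed, with the highest and lowest in level and spread, and up to 4 genes of other lists. Those lists cover further coagulation, complement, vitamin K, interferon-gamma, acute phase, growth hormone and transcription factor genes and cell type markers. Alternatives were RLE, upper-quartile, library-size and hepatocyte-reference scaling, filterByExpr, no filter, DESeq2 1.42.0, only the groups compared, a replicate block and each library left out. A length trend as covariate and the exclusion of 7 libraries were added after seeing the data. No 2 libraries of a group were alike within sampling noise (chi-square per gene at least 12.2). Values of some genes on these lists are not reported here.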

Additional observations from a re-analysis of the deposited data

Results flagged for a closer look

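For 6 members the effect of genotype was not the same in males and females by edgeR's interaction test on the TMM scale, each more positive in males: Fgg by 0.70, Fgb by 0.66, Fga by 0.65, F2 by 0.46, Kng1 by 0.45 and Kng2 by 0.45 on the log2 scale. The adjusted p-values were 0.0134, 0.0106, 0.0191, 0.0472, 0.0455 and 0.0374 in that order. With library size alone none of these 6 passed. Sex and the level of Sirt6 RNA cannot be told apart here, since all female SIRT6-tg mice lay below all male SIRT6-tg mice.

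A single mouse lay far from the other 6 of its group in 12 of the 156 combinations of member and group, where chance alone gives about 1 in 20. In 6 of the 12 it was male WT replicate 6, which is also among the libraries with a strong trend on transcript length. There Pros1 was at 83.7 CPM (104 to 120.1 in the others), C4b at 649.8 (970.3 to 1153), C4bp at 479 (610.1 to 684), Masp1 at 14.2 (40.7 to 75.1) and Cfb at 10.3 (19.3 to 29.4), all low, and C2 at 79.3 (52.7 to 60.7), high. Both kininogens were high in male WT replicate 5, Kng1 at 2307 CPM (1682 to 1862) and Kng2 at 304 CPM (235 to 257). The other 4 were F2 at 1629 CPM in male WT replicate 4 (1809 to 1934), F7 at 140.0 CPM in male SIRT6-tg replicate 4 (114 to 122), Hc at 653 CPM in female WT replicate 4 (947 to 1190.0) and Cfi at 1578 CPM in female WT replicate 1 (940.4 to 1084).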

How the results depend on the processing

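The 18 members called higher in male SIRT6-tg mice became 7 with upper-quartile scaling (4.36% of all genes, against 9.68% with TMM), 0 with library size alone (0.973%), 0 with the hepatocyte reference (0.510%), 9 with only the groups compared (4.58%) and 10 without the 7 libraries of low length slope (8.06%), and 8 to 19 with 1 library left out (8 without male WT replicate 4). The 1 member called lower became 4 with library size alone (18.9%) and 5 with the hepatocyte reference (19.5%), and stayed 1 with any library left out. With the hepatocyte reference the sign reversed for F7 (-0.0819), F10 (-0.0362), F12 (-0.0855), Kng1 (-0.106), Plg (-0.0887), Serpinf2 (-0.0679), Serpind1 (-0.151), Masp2 (-0.0133) and Vtn (-0.0306), and with library size alone for Kng1 (-0.00549) and Serpind1 (-0.0497). These scalings moved the median of all genes as well.

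The 6 members with a more positive effect in males became 3 (Fga, Fgb and Fgg) with RLE (0.690% of all genes, against 1.20%), upper-quartile scaling (0.542%), no filter (0.405%) or the replicate block (0.871%), 0 with library size alone (0.120%) or the hepatocyte reference (0.0880%), 14 with the length slope as a covariate (5.53%), and 0 (0.541%), with 1 in the other direction (3.89%), without the 7 libraries. Leaving out 1 library gave 3 to 9, and 3 without male WT replicate 1, 2, 3, 4, 6 or 7, male SIRT6-tg replicate 4, 6 or 7, female WT replicate 1 or 2, or female SIRT6-tg replicate 3, 4, 5 or 7. For male against female WT, 5 higher and 13 lower became 9 and 8 with library size alone (16.9% and 2.57%), 9 and 5 with the hepatocyte reference (15.4% and 1.80%), 11 and 10 without the 7 libraries (14.3% and 9.36%) and 6 and 20 with the length slope (10.6% and 10.2%), and 5 to 6 and 10 to 13 with 1 library left out. In females 0 members were called throughout.

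Replicate numbers did not pair the mice: the deviations of same-numbered mice correlated above 0.1 in 12 of 42 pairs, between -0.345 and 0.328. The study compared littermates and kept WT and transgenic mice in shared cages. The labels give neither litter nor cage, and neither was in the fit. With the replicate block 17 members were called higher and 1 lower in males, and 5 higher and 13 lower in WT males. The members' share of counts moved by less than 1 SD in each group, with mitochondrially encoded genes left out of the total or any library left out. The causes of these shifts were not tested. Both length settings were chosen after seeing the data.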

Other observations

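Lists of regulators and related plasma proteins gave further values for the surroundings of the coagulation and complement genes, all on the TMM scale. Of 10 hepatocyte transcription factors, 2 rose in male SIRT6-tg mice, Cebpa at 0.47 on the log2 scale (adjusted p = 1.34e-04) and Foxa2 at 0.63 (adjusted p = 0.0092), and with library size alone 0 rose. Cebpa also had a more positive genotype effect in males than in females, by 0.47 (adjusted p = 0.0181). Of 10 acute phase genes of the interleukin-6 type, 4 fell in male SIRT6-tg mice: Lcn2 at -3.75 (adjusted p = 5.83e-05), Saa2 at -2.77 (adjusted p = 8.96e-05), Orm2 at -2.28 (adjusted p = 0.00218) and Saa1 at -1.90 (adjusted p = 0.00358). The acute phase genes for the fibrinogen chains, described above, were higher in the same comparison on the TMM scale. With library size alone no fibrinogen chain was called, and 7 of the 10 acute phase genes of the interleukin-6 type fell. Of 4 membrane-bound complement regulators 1 rose, Cd59a at 0.47 (adjusted p = 0.0334), and of 6 genes of growth hormone signalling and sex pattern 1 rose, Ghr at 0.44 (adjusted p = 0.00303). With library size alone neither list had a gene called higher.

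Between WT males and females, Cux2, a female-biased liver transcription factor, stood at -5.89 on the log2 scale in males against females (adjusted p = 7.59e-10). Its direction is that of C3, the kininogens and the fibrinogen chains, and opposite to that of C6, C8a, C8b, C9 and F11. A link between Cux2 and these genes was not tested.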
